A study of Homo sapiens with 6 samples.

Results

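The genes described here are 49 named autophagy and lysosome genes, taken by symbol from the 63140 genes of an RNA-seq comparison in BT-549 cells. The rule names them by symbol and role and uses no measured value, but the list was drawn up with earlier results of these data known. All 49 passed the filter on low counts. BT-549 is an established triple negative breast cancer line, that is, one without estrogen receptor, progesterone receptor or HER2 amplification. Cells without any transgene (genotype WT) were grown for 24 h in adipocyte conditioned medium (ACM, 3 libraries) or in unconditioned medium (UCM, 3 libraries). ACM was made with OP9 cells, a mouse stromal line turned into adipocytes in medium with insulin, oleate and albumin. The labels give ACM at 50%, whereas the study's supplement describes ACM used undiluted for RNA-seq, and the composition of the UCM used for these libraries was not stated in the sources used here. Both groups shared the cell line and the time. The study's methods describe replicates lysed in the wells of a 6-well plate, and neither they nor the labels mention separate passages or days. The p-values therefore measure the spread between these libraries, which may be technical.

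Total expected counts, RSEM's estimates of the reads belonging to each gene, ran from 17135288 to 21053257 per library. Replicates 2 and 3 of UCM were closer to each other than any other pair of one group, with a chi-square of 2.32 per gene against 13.1 to 21.5 in the other pairs and 1 for sampling noise, and both were kept. The labels call the cells epithelial, but 6 of 7 breast epithelial markers stayed at or below 1.83 CPM (counts scaled to a common library size) in every library, whereas the mesenchymal marker VIM was at 2736 to 3554 CPM. ESR1 and PGR had 0 counts in all 6 libraries. The adipocyte markers ADIPOQ, LEP and CIDEC were likewise at 0, and the 7 adipocyte markers summed to 2.08 to 3.10 CPM in ACM and 1.40 to 1.92 CPM in UCM, nearly all of it from CFD.

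Autophagy delivers cytoplasm and organelles to lysosomes. The ULK kinase complex and the class III PI3-kinase complex start it, and ATG9A vesicles supply the growing membrane. Conjugation enzymes attach ATG8 proteins (the LC3 and GABARAP groups) to that membrane, where cargo receptors such as SQSTM1 (p62) bind them. The closed autophagosome then fuses with a lysosome, whose proton pump, the V-ATPase, acidifies the lumen for the acid hydrolases. Transcription factors of the TFEB family act on many of these genes through the E-box CACGTG and an extended form of it, with GT before and AC after, and the kinase mTORC1 holds these factors in the cytoplasm when nutrients are plentiful. Lipid droplets are among the cargoes of autophagy.

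To show where this E-box lies in the members, the RefSeq promoters (250 bases before to 50 bases after the annotated start, GRCh38.p14) were searched. A promoter was at hand for 41 of the 49 members. MAP1LC3A, BNIP3L, LAMP2, CTSB, HEXA, PSAP, ATP6V1A and ATP6V1H had no entry. CACGTG was present in at least 1 promoter of 10 members (24.39%), against 12.55% of the 10659 tested genes that had a promoter entry. TCACGTG, searched on both strands and overlapping CACGTG, was present in 9 members (21.95%, against 7.215%), and the extended form, CACGTG with GT before and AC after it, in GAA and MCOLN1 (4.878%, against 0.8725%). Counted by promoter and not by gene, the shares were 17.24%, 15.52% and 3.448% of the 58 promoters of members. Over all 35116 promoters they were 7.256%, 3.711% and 0.3531%. CACGTG and the extended form read the same on both strands. The 10 members are ATG14, ATG3, ATP6V0D1, CD63, CTSA, CTSD, GAA, LAMP1, MCOLN1 and NEU1. Windows of 6 of them are printed from the gene's own strand, with CACGTG in capitals. They are NEU1, the only one of the 10 to pass the test of ACM against UCM (chr6:31862915-31862974, minus strand, with the motif ending 126 bases before the start), the holders of the extended form GAA (chr17:80101493-80101522, plus strand) and MCOLN1 (chr19:7522556-7522623, plus strand), LAMP1 with the most copies (chr13:113297020-113297129, plus strand), the pump subunit ATP6V0D1 (chr16:67481184-67481243, minus strand) and the protease CTSD (chr11:1763957-1763986, minus strand).
NEU1: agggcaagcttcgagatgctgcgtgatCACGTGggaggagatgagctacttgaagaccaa
GAA: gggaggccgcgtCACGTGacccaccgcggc
MCOLN1: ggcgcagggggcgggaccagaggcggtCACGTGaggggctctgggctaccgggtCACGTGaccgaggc
LAMP1: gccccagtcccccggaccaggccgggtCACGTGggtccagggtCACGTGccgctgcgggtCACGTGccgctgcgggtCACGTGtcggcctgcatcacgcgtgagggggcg
ATP6V0D1: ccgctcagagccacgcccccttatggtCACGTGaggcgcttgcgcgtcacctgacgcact
CTSD: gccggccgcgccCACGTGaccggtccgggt
The LAMP1 window holds 4 copies of CACGTG, and its whole promoter holds 6. Both copies of MCOLN1 lie in the window shown, the one nearer the start inside the extended form. A match in these windows is a description of sequence and not a measured binding site.

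In ACM, 5 of the 49 members rose against UCM and 1 fell. The test was edgeR's quasi-likelihood test over all 14451 genes, with a call at a Benjamini-Hochberg adjusted p of at most 0.05. The 5 were ATG13 of the ULK complex, the conjugation enzyme ATG7, the cargo receptor NBR1 and the lysosomal proteases CTSB and CTSZ. The 1 lower member was NEU1, a lysosomal sialidase. Higher calls made up 10.2% of the members against 3.35% of all genes tested, and the lower call 2.04% against 2.21%. The members were better expressed than most genes, with a median of 74.48 CPM against 24.33 CPM, and among the 9672 genes averaging at least 10 CPM the background was 4.11% higher and 3.02% lower. None of the 6 reached a log2 FC of 0.58 in either direction. In bulk RNA a change in the cells that make a transcript and a change in the RNA each cell holds cannot be told apart.

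By CPM, all 3 ACM libraries lay above all 3 UCM libraries in 16 members (32.7%, against 13.9% of all genes tested) and below them in 10 (20.4%, against 15.1%). The replicates of the other 23 members overlapped. By TPM, the groups of GABARAPL1, WIPI2, ATG12, ATG16L1, GAA, HEXA and ATP6V0D1 overlapped instead, and those of MITF, ATG5 and CALCOCO2 were apart. With an unadjusted p of at most 0.05 there were 13 members higher and 6 lower, where 11.9% and 11.5% of all genes were. The log2 FC was positive in 32 members and negative in 17, with a median of 0.07 against -0.01 over all genes tested. The median was 0.24 over the 11 lysosomal enzymes, 0.20 over the 6 cargo receptors, -0.15 over the 7 conjugation genes and -0.16 over the 4 V-ATPase genes.

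**Figure D1:**
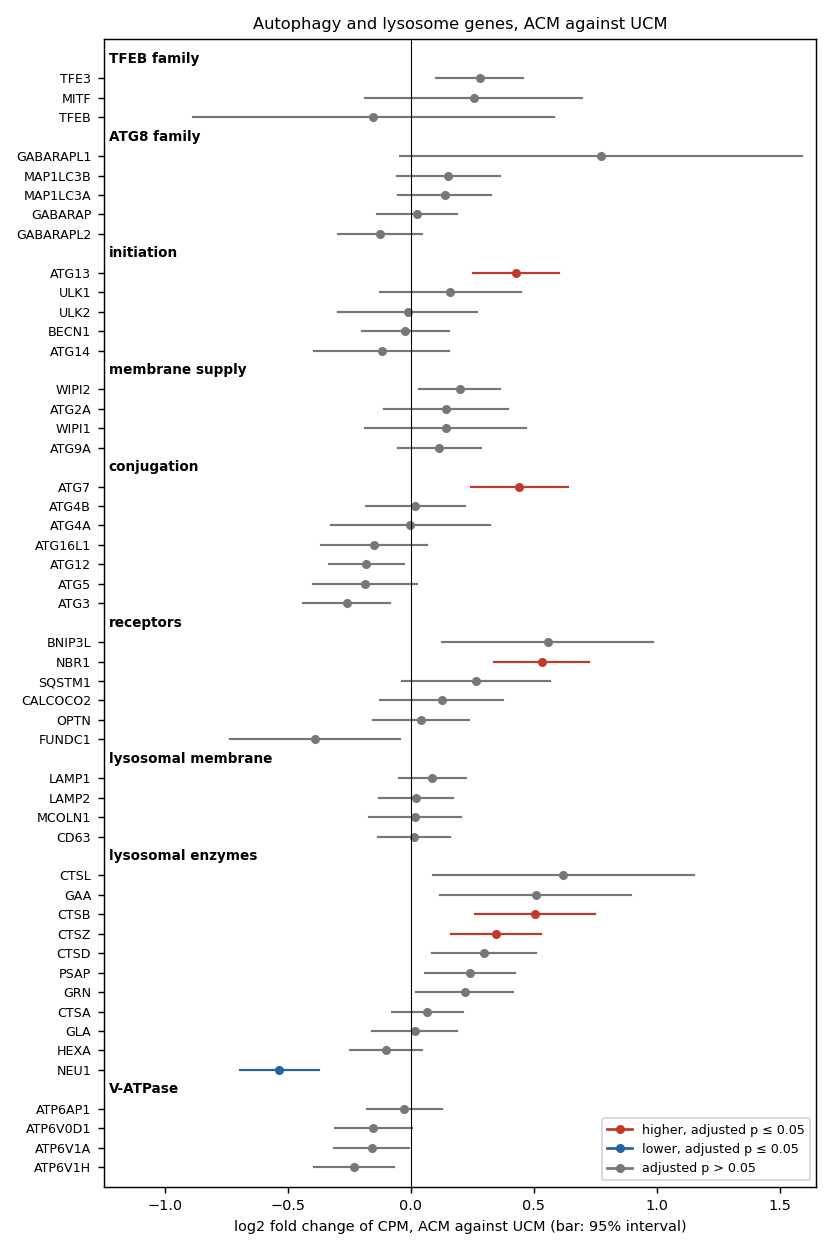
Log2 fold change of CPM in ACM against UCM for the 49 members in blocks by role (x axis, points, with bars for the 95% interval from edgeR). Red points are the 5 members that rose at an adjusted p of at most 0.05, the blue point is NEU1 at -0.54, and grey points did not pass.

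ACM replicate 2 stood apart from the other ACM libraries in many of these genes. It was the ACM library farthest from the UCM mean in 31 of 49 members, against 42.6% of all genes tested. It was the highest ACM library in 30 of 49 members (61.2%), against 34.1% of all genes tested, and in 16 of the 16 members whose ACM values all lay above UCM, against 61.1% of the 2012 such genes. All 16 had a smaller log2 FC when this library was left out, which its being the highest all but fixes in advance and which adds no evidence. Of the 10 members that lay below UCM, 3 had ACM replicate 2 as the highest ACM library and 4 had a smaller change without it. Without it, NBR1 (adjusted p = 0.0441 in edgeR) and NEU1 (0.0178) passed and the other 4 called members did not, beside a background of 1.34% higher and 0.591% lower over 14727 genes. Leaving out UCM replicate 2 or UCM replicate 3 also left 1 member higher and 1 lower in edgeR. Over all genes, 125 and 156 were then higher and 70 and 62 lower, against 197 and 87 without ACM replicate 2. Without ACM replicate 3 there were 2 members higher, and without ACM replicate 1 or UCM replicate 1 there were 5. The part of ACM replicate 2 in the results was not otherwise tested.

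**Figure D2:**
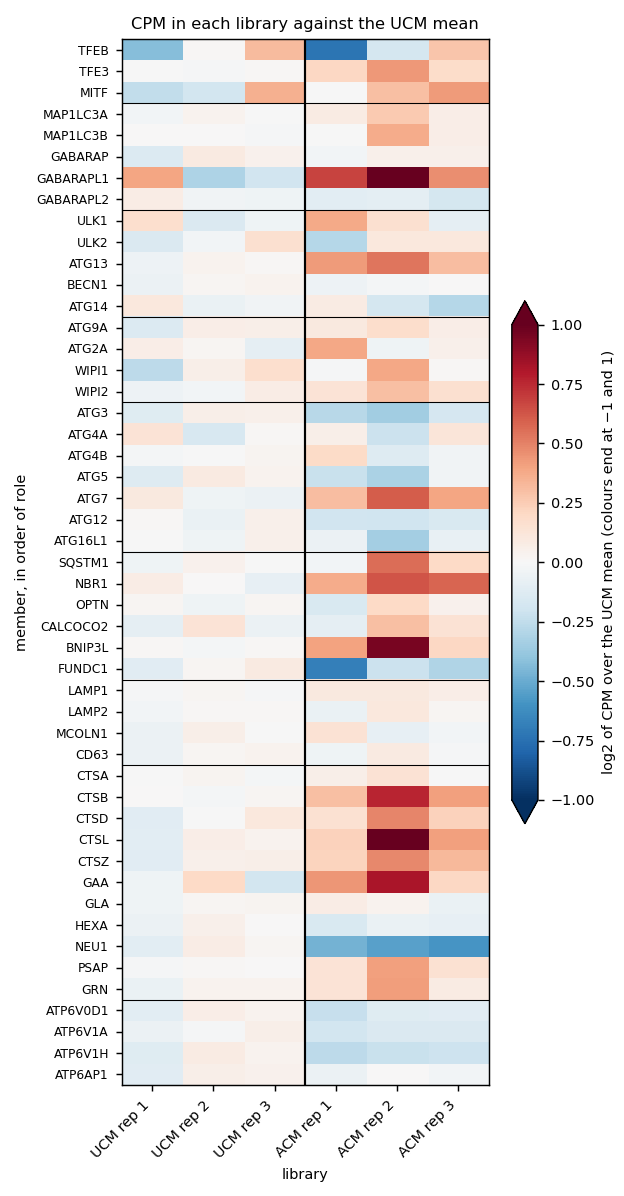
Log2 ratio of the CPM of each library to the UCM mean for the 49 members (rows, in order of role) in the 3 UCM and 3 ACM libraries (columns), with colours ending at -1 and 1. ACM replicate 2 is the highest ACM library in 30 of the 49 rows.

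No gene of the TFEB family, the transcription factors that act on the E-box above, passed the adjusted p-value in edgeR, and 1 of the 3 passed the unadjusted one. With DESeq2, TFE3 alone passed. TFE3 was at 91.1, 107 and 90.01 CPM in ACM replicates 1, 2 and 3 and at 78.9, 78.6 and 79.8 CPM in UCM, so that the groups did not overlap. Its log2 FC was 0.28 ± 0.080 (SE), with an adjusted p of 0.0702 in edgeR. MITF, better known from melanocytes, gave 6.75, 8.34 and 9.08 CPM in ACM and 5.69, 5.97 and 8.63 CPM in UCM. Its groups overlapped in CPM but not in TPM. TFEB itself was close to the limit of these libraries, at 1.38, 2.03 and 2.77 CPM in ACM and 1.71, 2.31 and 2.86 CPM in UCM, and its log2 FC of -0.15 had a 95% interval from -0.89 to 0.58. Per length, TFE3 was the most abundant of the 3, at 38.3 ± 0.563 TPM (counts scaled by length and library; SD, n = 3) in UCM against 2.83 ± 0.419 TPM for MITF and 1.73 ± 0.240 TPM for TFEB. Of the 10 members with CACGTG in a promoter, 0 rose and 1 fell in edgeR, where 3.35% and 2.21% of all genes tested did. So small a set can show little beside that background. At the unadjusted p-value (background 11.9% and 11.5%), CTSD and GAA lay higher and ATG3 and NEU1 lower, and CTSD passed as higher in DESeq2. The log2 FC of the 10 was positive in 6 and negative in 4, with a median of 0.01.

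Among the 5 initiation genes, ATG13 rose (20%, against 3.35% of all genes tested). The others did not pass either the adjusted or the unadjusted test. ATG13 (ENSG00000175224, chr11:46617527-46674818, plus strand, positions from GENCODE 44 on GRCh38) is the adaptor that holds the ULK complex together. It was at 73.9, 79.7 and 67.9 CPM in ACM and at 52.9, 56.4 and 55.5 CPM in UCM. The lowest ACM library thus lay above the highest UCM library, and the change was 1.345-fold (log2 FC 0.43 ± 0.079 SE, adjusted p = 0.0149 in edgeR). The kinases ULK1 and ULK2 and the PI3-kinase complex genes BECN1 and ATG14 had overlapping groups and log2 FCs from -0.12 to 0.16. The ATG13 call was lost in 3 of 6 fits that left out a library, with an adjusted p of 0.0635 without ACM replicate 2, 0.0635 without UCM replicate 2 and 0.0577 without UCM replicate 3, while the log2 FC was 0.37, 0.45 and 0.44. It was also lost with limma on log2(TPM + 1) (0.0761) and log2(TPM + 0.1) (0.0747) and with effective length offsets (0.0572). An exon of HARBI1, on the opposite strand, overlaps ATG13 and averaged 5.85 CPM. The sources used here do not say whether counting used the strand, so reads of the 2 genes may not be separable there.

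No membrane supply gene passed the adjusted p-value (0 of 4 in edgeR, 0 of 4 in DESeq2). One of them, WIPI2, which recruits the conjugation machinery to the membrane, passed the unadjusted p-value. It gave 88.0, 98.8 and 89.4 CPM in ACM and 77.3, 78.8 and 84.5 CPM in UCM, with a log2 FC of 0.20 ± 0.074 (adjusted p = 0.141 in edgeR). ATG9A, the membrane protein of the donor vesicles, ATG2A, which transfers lipid, and WIPI1 had overlapping groups and log2 FCs from 0.12 to 0.14.

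The conjugation genes went in both directions. ATG7 (ENSG00000197548, chr3:11272309-11557665, plus strand), the E1-like enzyme that activates both ATG12 and the ATG8 proteins, was at 86.9, 107 and 92.6 CPM in ACM and at 75.1, 68.2 and 67.5 CPM in UCM. It rose 1.358-fold, with a log2 FC of 0.44 ± 0.089 (SE) and an adjusted p of 0.0210 in edgeR. ATG3, the E2-like enzyme that passes ATG8 on to its lipid, lay on the other side, at 67.2, 63.9 and 72.2 CPM in ACM and 74.7, 84.6 and 84.3 CPM in UCM. Its log2 FC was -0.26 ± 0.080, with an adjusted p of 0.0856. ATG12, the ubiquitin-like partner of ATG5, was at 64.0, 63.5 and 65.7 CPM in ACM and 73.6, 69.7 and 75.8 CPM in UCM, a log2 FC of -0.18 with an adjusted p of 0.146. ATG16L1, which places the ATG12-ATG5 conjugate on the membrane, had CPM groups apart in the same direction without passing the unadjusted p-value. ATG5 and the proteases ATG4A and ATG4B had overlapping CPM groups. By TPM, the groups of ATG12 and ATG16L1 overlapped and those of ATG5 were apart and lower. The ATG7 call was lost without ACM replicate 2 (adjusted p = 0.0773), ACM replicate 3 (0.0562), UCM replicate 2 (0.102) and UCM replicate 3 (0.0841), with log2 FCs from 0.35 to 0.46, and with limma on log2(TPM + 1) (0.1154) and log2(TPM + 0.1) (0.113) and effective length offsets (0.0998). An exon of VGLL4, at 74.6 CPM and thus nearly as abundant as ATG7, overlaps it on the opposite strand.

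None of the 5 ATG8 genes passed the adjusted p-value in edgeR or DESeq2, nor the unadjusted one in edgeR. MAP1LC3B, the usual LC3 marker gene, was at 151, 197 and 159 CPM in ACM and 153, 152 and 151 CPM in UCM, and its log2 FC of 0.15 dropped to 0.03 without ACM replicate 2. GABARAP was level at 196, 206 and 206 CPM against 181, 211 and 205 CPM. Its log2 FC was 0.03, with a 95% interval from -0.14 to 0.19. MAP1LC3A gave 38.4, 43.5 and 38.1 CPM in ACM and 35.6, 37.3 and 36.2 CPM in UCM, apart and higher, while GABARAPL2 gave 43.9, 44.2 and 41.8 CPM against 49.7, 46.0 and 46.0 CPM, apart and lower, with intervals of the log2 FC from -0.05 to 0.32 and from -0.30 to 0.04. GABARAPL1 was rare, at 1.38, 1.92 and 1.196 CPM in ACM and 1.14, 0.699 and 0.758 CPM in UCM. Its log2 FC of 0.77 was the largest of any member but had an interval from -0.05 to 1.59, and its TPM groups overlapped. MAP1LC3B and GABARAPL1 have near-identical copies in the genome (MAP1LC3B2 and GABARAPL3), between which RSEM may split reads, so their values are uncertain. Summed over the family, the ATG8 genes took 817.5, 845.8 and 840.3 TPM in ACM and 765.4, 809.5 and 847.5 TPM in UCM, with overlapping groups.

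Of the 6 cargo receptors, NBR1 rose (16.7%, against 3.35% of all genes tested). NBR1 (ENSG00000188554, chr17:43170481-43211689, plus strand) binds ubiquitinated cargo and ATG8 proteins. Its libraries gave 64.4, 77.1 and 74.6 CPM in ACM and 52.5, 49.8 and 47.1 CPM in UCM. The groups were well apart, at 1.445-fold (log2 FC 0.53 ± 0.087 SE, adjusted p = 0.00893 in edgeR). The call held in 13 of 14 alternatives, the exception being limma on log2(TPM + 1) at an adjusted p of 0.0504, and the adjusted p went as low as 2.46e-07. An antisense lncRNA at 7.16 CPM (ENSG00000267002) overlaps its exons.

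BNIP3L (NIX), a receptor for mitochondria, had a log2 FC as large as that of NBR1 but a wider spread. It was at 158, 231 and 138 CPM in ACM against 120, 118 and 120 CPM in UCM, with a log2 FC of 0.56 ± 0.181 and an adjusted p of 0.130 in edgeR. It passed in DESeq2 (adjusted p = 0.00304) and with a filter of at least 1 count in total (0.000742), and in no other of the 14 alternatives. Without ACM replicate 2 the log2 FC was 0.31 and the adjusted p 0.0995. FUNDC1, another mitochondrial receptor, lay lower, at 6.84, 9.46 and 8.91 CPM in ACM and 10.2, 11.1 and 11.7 CPM in UCM (log2 FC -0.39, adjusted p = 0.165). SQSTM1, which encodes p62, was at 696, 1044 and 815 CPM in ACM and 689, 728 and 708 CPM in UCM. Here the groups overlapped, and the log2 FC of 0.27 (adjusted p = 0.275) was 0.09 without ACM replicate 2. OPTN and CALCOCO2, receptors used in the removal of bacteria and mitochondria, had overlapping CPM groups and log2 FCs of 0.04 and 0.13. The TPM groups of CALCOCO2 were apart and higher.

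The 4 lysosomal membrane genes were close to level, with 0 of 4 past the adjusted or unadjusted p-value in edgeR and 0 of 4 past the adjusted p-value in DESeq2. LAMP1 and LAMP2, the main membrane glycoproteins, had log2 FCs of 0.09 and 0.02, and the calcium channel MCOLN1 and the tetraspanin CD63 had log2 FCs of 0.02 and 0.01. The 95% intervals of the 4 together spanned -0.17 to 0.22. Their summed TPM was 1064, 1075 and 1066 in ACM and 1041, 1056 and 1064 in UCM. LAMP2, MCOLN1 and CD63 changed sign under some alternatives, and the small values of these 3 genes therefore have no settled direction.

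The lysosomal enzymes held 3 of the 6 calls. Of the 11, CTSB and CTSZ rose (18.2%, against 3.35% of all genes tested) and NEU1 fell (9.09%, against 2.21%). At an unadjusted p of at most 0.05, 7 were higher and 1 lower (background 11.9% and 11.5%). By CPM, the ACM libraries all lay above UCM in 7 (background 13.9%) and below in 2, NEU1 and HEXA (15.1%). The TPM groups of HEXA overlapped. CTSB (ENSG00000164733, chr8:11842524-11869533, minus strand), the cysteine protease cathepsin B, was at 3051, 4179 and 3284 CPM in ACM and at 2482, 2433 and 2498 CPM in UCM. This was the most abundant member, and it rose 1.418-fold (log2 FC 0.50 ± 0.110 SE, adjusted p = 0.0305 in edgeR). CTSZ (ENSG00000101160, chr20:58985686-59008238, minus strand), the carboxypeptidase cathepsin Z, was at 240, 286 and 257 CPM in ACM and 190, 213 and 214 CPM in UCM, a 1.271-fold rise (log2 FC 0.35 ± 0.082, adjusted p = 0.0375). Neither pair of groups overlapped. Both calls were lost without ACM replicate 2 (adjusted p 0.0555 and 0.140), ACM replicate 3 (0.0617 and 0.0836), UCM replicate 2 (0.132 and 0.120) and UCM replicate 3 (0.0948 and 0.0924). The CTSZ call was also lost with limma on log2(TPM + 1) (0.0971) and log2(TPM + 0.1) (0.0945) and with effective length offsets (0.0979). NELFCD, at 176 CPM, overlaps an exon of CTSZ on the opposite strand, and no other gene's exon overlaps CTSB or NEU1.

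NEU1 (ENSG00000204386, chr6:31857659-31862905, minus strand), the sialidase that removes terminal sialic acids, was at 104, 99.5 and 96.3 CPM in ACM and at 135, 153 and 147 CPM in UCM. The ACM libraries were close together and all below UCM. The ratio was 0.69 (log2 FC -0.54 ± 0.072 SE, adjusted p = 0.00389 in edgeR). NEU1 was the only called member that passed in all 14 alternatives, with adjusted p-values from 1.61e-08 to 0.0268, and leaving out ACM replicate 2 gave a log2 FC of -0.53. CTSA, the protective protein that forms a complex with NEU1 in the lysosome, was at 369, 391 and 353 CPM in ACM and 353, 361 and 349 CPM in UCM, with overlapping groups and a 95% interval of its log2 FC from -0.08 to 0.21.

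**Figure D3:**
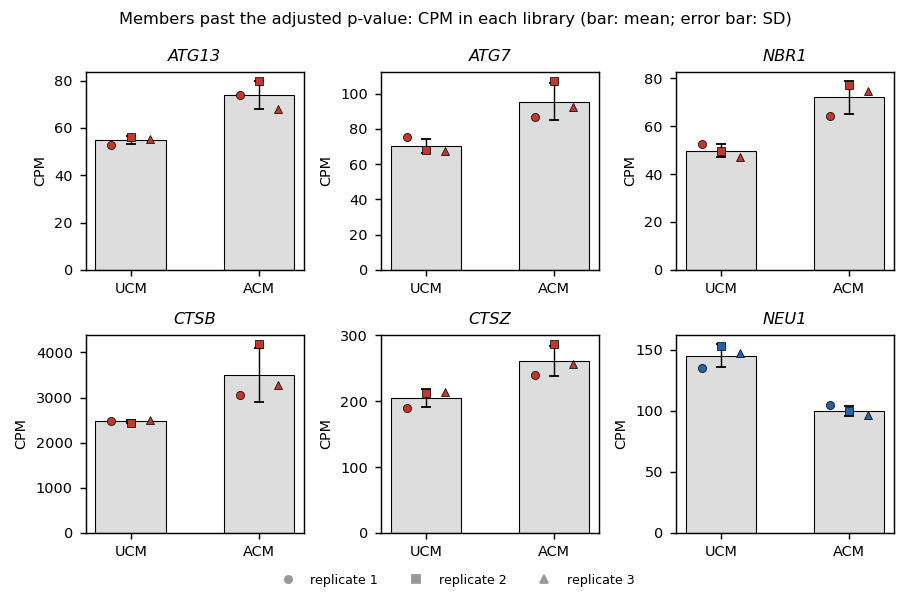
CPM of the 6 members past the adjusted p-value in each library (y axis from 0), with a bar for the group mean, an error bar for the SD (n = 3) and one symbol per replicate. ACM and UCM libraries do not overlap in any of the 6, and CTSB in ACM replicate 2 reaches 4179 CPM.

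Another 5 enzyme genes had CPM groups apart and higher in ACM without passing the adjusted p-value. CTSL, the cysteine protease cathepsin L, was at 603, 1085 and 682 CPM in ACM and 478, 537 and 527 CPM in UCM. Its log2 FC of 0.62 ± 0.220 was the only one of at least 0.58 with an unadjusted p of at most 0.05, its adjusted p was 0.161, and without ACM replicate 2 the log2 FC was 0.32. GAA, the acid glucosidase that degrades glycogen, gave 12.3, 15.9 and 10.4 CPM in ACM and 8.81, 10.4 and 7.99 CPM in UCM (log2 FC 0.51, adjusted p = 0.119). GAA was low in every library and its TPM groups overlapped, and CTSL was scattered in ACM.
CTSD, the aspartic protease cathepsin D, gave 349, 439 and 368 CPM in ACM and 290, 314 and 338 CPM in UCM (log2 FC 0.30, adjusted p = 0.0997). PSAP, the precursor of the saposins that help degrade sphingolipids, gave 800, 965 and 809 CPM in ACM and 721, 732 and 727 CPM in UCM (log2 FC 0.24, adjusted p = 0.118). GRN, the progranulin precursor, gave 190, 231 and 183 CPM in ACM and 165, 177 and 177 CPM in UCM (log2 FC 0.22, adjusted p = 0.176). In all 5 of these genes ACM replicate 2 was the highest library, and without it the log2 FC was 0.33 for GAA, 0.19 for CTSD, 0.15 for PSAP and 0.11 for GRN. The glycosidases GLA and HEXA had log2 FCs of 0.01 and -0.10. The 11 enzymes together took 0.474%, 0.627% and 0.512% of all TPM in ACM and 0.410%, 0.413% and 0.421% in UCM, with groups apart, and CTSB made up the largest part of these sums.

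All 4 V-ATPase members had a negative log2 FC, although none passed the adjusted p-value in edgeR or DESeq2. The unadjusted one in edgeR was passed by 2 (background 11.5% lower). ATP6V1H, a regulatory subunit of the cytoplasmic V1 sector, was at 77.1, 79.3 and 80.1 CPM in ACM and 85.1, 97.9 and 94.6 CPM in UCM (log2 FC -0.23 ± 0.074, adjusted p = 0.0960). ATP6V1A, the catalytic V1 subunit, gave 61.0, 62.6 and 62.6 CPM in ACM and 66.7, 68.9 and 72.4 CPM in UCM (log2 FC -0.16 ± 0.069, adjusted p = 0.197). ATP6V0D1 of the membrane sector V0 was at 140.1, 151.5 and 152.5 CPM in ACM against 153.2, 172.1 and 168.4 CPM in UCM. These 3 genes had CPM groups apart (background 15.1% below UCM), ATP6V0D1 by a narrow margin and with TPM groups that overlapped. The accessory gene ATP6AP1 overlapped at a log2 FC of -0.03.

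The other V-ATPase genes were examined to see whether they moved as these 4 members did. With the 4 members, 25 of 28 listed V-ATPase genes were tested, of which 3 were lower (12%, against 2.21% of all genes) and 0 higher in edgeR. With DESeq2 the counts were also 3 and 0, with limma on log2(TPM + 1) they were 1 and 0, and at the unadjusted p-value in edgeR 7 and 1 (background 11.5% and 11.9%). In 10 of the 25 the ACM libraries all lay below UCM (background 15.1%), and in 0 they all lay above (13.9%). The 21 genes that are not members gave 7 below, with 5 lower and 1 higher at the unadjusted p-value. ATP6V1B2 gave 130, 123 and 129 CPM in ACM and 162, 160 and 161 CPM in UCM, ATP6V1C1 gave 120, 131 and 122 CPM in ACM and 164, 160 and 160 CPM in UCM, and ATP6V1G1 gave 60.8, 53.9 and 51.0 CPM in ACM and 76.6, 79.1 and 77.6 CPM in UCM. The log2 FCs of these V1 subunits were -0.34, -0.38 and -0.49, with adjusted p-values of 0.0136, 0.0105 and 0.00864, and the calls held in 10, 9 and 14 of the 14 alternatives. Split by sector, a grouping made after the values had been seen, 10 of 11 V1 subunits, 4 of 8 V0 subunits and 3 of 6 associated genes had a negative log2 FC, with medians of -0.18, 0.00 and 0.03. V1 subunits summed to 681.2, 698.7 and 737.4 TPM in ACM and 803.9, 862.5 and 863.3 TPM in UCM. V0 subunits summed to 1355, 1316 and 1300 TPM in ACM and 1362, 1393 and 1428 TPM in UCM, also with groups apart. By CPM, the ACM libraries all lay below UCM in 6 of 11 V1, 3 of 8 V0 and 1 of 6 associated genes. They all lay above in 0 of each.

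**Figure D4:**
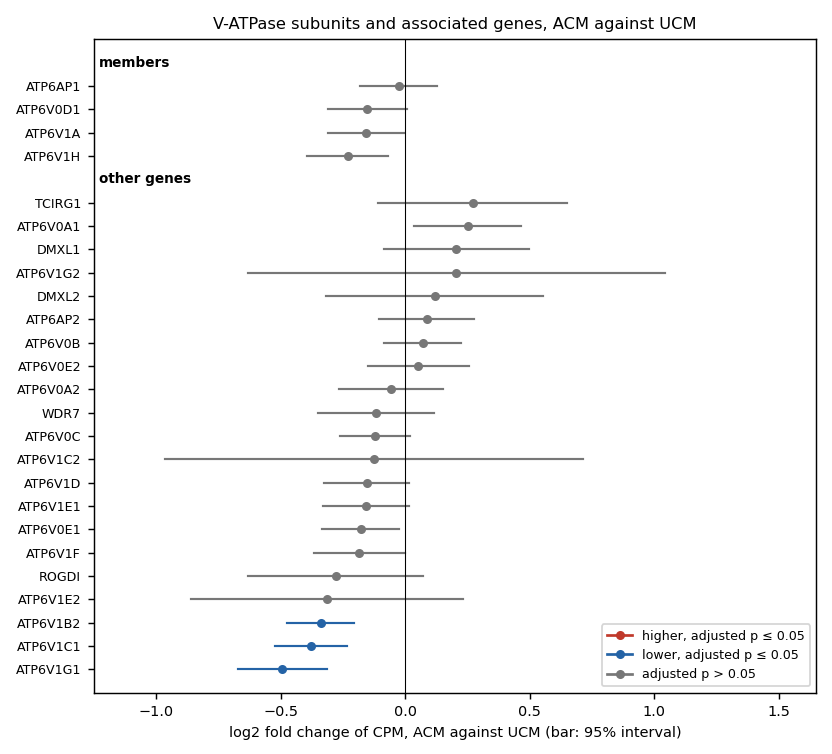
Log2 fold change of CPM in ACM against UCM (x axis, with 95% intervals) for the 25 tested V-ATPase genes, the 4 members above and the other genes below. The 3 blue points are the V1 subunits ATP6V1B2, ATP6V1C1 and ATP6V1G1, from -0.34 to -0.49.

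Per length, the members spanned a 1100-fold range in UCM, from TFEB at 1.73 TPM to CTSB at 1899 TPM. The most abundant were CTSB at 1934, 1844 and 1920 TPM in UCM and 2328, 3099 and 2541 TPM in ACM, then CTSL at 532, 590 and 573 TPM in UCM and 639, 1146 and 751 TPM in ACM, and SQSTM1 at 503, 546 and 496 TPM in UCM and 530, 743 and 589 TPM in ACM. After CTSB, the levels of CTSL, SQSTM1, GABARAP, CD63 and PSAP lay within 479 to 565 TPM on average in UCM. The values of CTSL and GABARAP, at 514 ± 48.4 TPM, overlapped there, and those of SQSTM1, GABARAP and CD63 could not be ordered beyond their spread. At the low end, TFEB was at 1.67, 1.52 and 1.99 TPM in UCM and 0.92, 1.37 and 1.94 TPM in ACM. GABARAPL1 gave 4.04, 1.06 and 0.91 TPM in UCM and 2.92, 4.94 and 1.08 TPM in ACM, and MITF gave 2.58, 2.59 and 3.31 TPM in UCM and 3.54, 3.73 and 4.71 TPM in ACM. The 49 members together took 0.862%, 1.048% and 0.917% of all TPM in ACM and 0.786%, 0.804% and 0.820% in UCM. CTSB weighs most in these sums, at 1899 TPM on average in UCM and 2656 TPM in ACM. The median log2 FC of the members was 0.07.

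**Figure D5:**
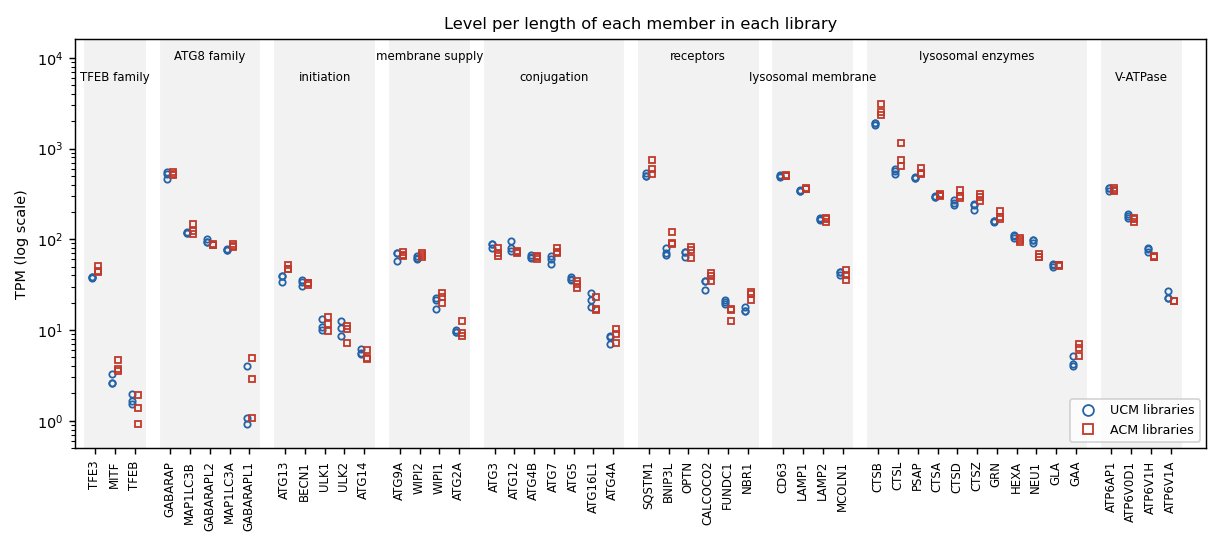
TPM of each member in each library on a log axis, with members in blocks by role and in order of level within a block, UCM as blue circles and ACM as red squares. CTSB lies highest, at 1844 to 3099 TPM, and TFEB lowest, at 0.92 to 1.99 TPM.

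TPM divides by the effective length, a mean over a gene's transcripts weighted by their abundance, and this length was therefore compared as a readout of its own. No member passed the adjusted p-value for effective length in limma, where 1 of 14450 genes (0.00692%) did. At the unadjusted p-value 2 members passed (4.08%, against 4.91% of all genes). WIPI2 had lengths of 1951, 1957 and 1928 bases in ACM and 1868, 1800 and 1835 bases in UCM, and MITF had 2695, 3095 and 2787 bases in ACM and 3200, 3250 and 3740 bases in UCM. In WIPI2 the longer mean in ACM goes with TPM groups that overlap where the CPM groups did not. In MITF the shorter mean in ACM goes with TPM groups apart and higher where the CPM groups overlapped. The log2 FC of MITF was 0.52 with effective length offsets (adjusted p = 0.191 in edgeR) and 0.25 without them (0.490). In ATG4A, ATG4B, LAMP2 and MCOLN1 the group means of TPM and CPM differed in opposite directions. Exons of another gene overlap those of 24 members, in 22 of them on the opposite strand.

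The wider pathway was described with 6 lists that hold 165 further autophagy and lysosome genes, 155 of them tested. Of these, 6 were higher (3.87%) and 4 lower (2.58%) in edgeR, close to the background of 3.35% and 2.21%, and their median log2 FC was -0.00. Among 27 other autophagy genes 1 was called higher (3.70%, against 3.35%) and 0 lower. At the unadjusted p-value 3 were higher and 5 lower (background 11.9% and 11.5%). The called gene was RUBCN, the Beclin 1 binding protein that restrains autophagy. It was at 61.8, 68.8 and 63.3 CPM in ACM and 52.7, 47.8 and 52.3 CPM in UCM (log2 FC 0.34, adjusted p = 0.0335 in edgeR). Among 17 other cargo receptors 2 rose (11.8%, against 3.35%) and 0 fell, with 4 and 2 at the unadjusted p-value and 3 and 0 in DESeq2. BNIP3, the paralog of BNIP3L, was at 78.2, 98.7 and 61.3 CPM in ACM and 50.7, 46.8 and 48.9 CPM in UCM (log2 FC 0.70, adjusted p = 0.0423), and CCPG1, a receptor for the endoplasmic reticulum, at 47.7, 72.2 and 55.8 CPM in ACM and 40.2, 40.2 and 38.4 CPM in UCM (log2 FC 0.56, adjusted p = 0.0497). These calls were lost without ACM replicate 2, at adjusted p-values of 0.131 for RUBCN, 0.0555 for BNIP3 and 0.0896 for CCPG1.

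Of 29 other lysosomal membrane and sorting genes, 3 rose (10.3%, against 3.35%) and 1 fell (3.45%, against 2.21%). The largest change was in CD68, a lysosomal glycoprotein best known from macrophages, at 12.1, 29.1 and 16.0 CPM in ACM and 6.59, 4.79 and 5.36 CPM in UCM (log2 FC 1.76 ± 0.338, adjusted p = 0.0335 in edgeR, 1.33 and 0.0128 without ACM replicate 2). The CD68 call held in 10 of 14 alternatives, with adjusted p-values up to 0.160. The other 6 leukocyte markers summed to 0.489 to 0.732 CPM in ACM and 0.711 to 1.13 CPM in UCM, and LYZ, AIF1 and TYROBP were at 0 in every library. TPCN1, a cation channel of endosomes and lysosomes, was at 54.6, 59.5 and 49.6 CPM in ACM and 37.1, 36.6 and 33 CPM in UCM (log2 FC 0.62, adjusted p = 0.00592). SLC17A5, the sialic acid exporter of the lysosome, rose from 13.4, 16.0 and 15.7 CPM in UCM to 19.8, 25.1 and 22.3 CPM in ACM (log2 FC 0.58, adjusted p = 0.0264, and 0.111 without ACM replicate 2). It is the carrier for the sugar that NEU1 releases, and the 2 genes moved in opposite directions. M6PR, a receptor that sorts enzymes to lysosomes, fell from 133, 144 and 143 CPM in UCM to 110, 119 and 119 CPM in ACM (log2 FC -0.27, adjusted p = 0.0474, and 0.111 without ACM replicate 2).

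Among 40 other lysosomal enzymes 0 were called in edgeR, with 6 higher and 2 lower at the unadjusted p-value (background 11.9% and 11.5%), and DESeq2 called 0 higher and 1 lower. Their median log2 FC was 0.09, and 28 of the 40 were positive. The list named for control of TFEB by mTORC1 and the Rag GTPases had 21 tested genes. It also holds PPP3CB and GPNMB, which are not part of that route. Of the 21, 0 were called in edgeR and 1, lower, in DESeq2. At the unadjusted p-value, where the background was 11.9% higher and 11.5% lower, 0 were higher and 5 lower, namely LAMTOR1, LAMTOR4, LAMTOR5, RRAGC and RHEB, whose log2 FCs ran from -0.38 to -0.19. ACM libraries lay below UCM in 10 of the 21 (background 15.1%) and above in 1 (13.9%), with a median log2 FC of -0.14.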

How the data were processed

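Paired-end poly(A) libraries of BT-549 cells were made. The authors ran Trim Galore on the reads, then STAR against GRCh38, then RSEM. Tool versions and the annotation are not given in the sources used here. The deposited expected counts are unscaled. The TPM values that the authors deposited are scaled by effective length and library sum. A deposited table of the authors' DESeq2 log2 fold changes, standard errors, Wald scores, p-values and adjusted p-values was not used. Members and lists were chosen with earlier results of these data known, and TMEM55B, listed beside PIP4P1, is an older name of the same gene.

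Genes were matched by Ensembl identifier without version. Rounded expected counts were fitted whole in R 4.3.3 with edgeR 4.0.16 (TMM, filterByExpr, robust quasi-likelihood, condition as only term, Benjamini-Hochberg adjustment), and CPM used the TMM-scaled library sizes. With 3 libraries per group, the common coefficient of biological variation was 0.115. Log2 effective lengths, centred on each library's median, were fitted with limma 3.58.1. Scripts were tested on simulated data. Values in every library are given for members past the adjusted p-value, or past the unadjusted one with groups apart, the TFEB and ATG8 families and the 3 highest and lowest members by TPM, and for up to 5 called genes of each other list. SQSTM1, CTSA, ATP6V0D1 and the genes listed for mTORC1 were named after their values were seen. Alternatives were DESeq2 1.42.0, RLE size factors, other count filters, limma on log2 TPM, effective length offsets, the replicate block and leaving out each library. Listed genes that did not pass the filter included MAP1LC3C, VAMP8, CTSS, LAMP3, ATP6V0A4, ATP6V0D2, ATP6V1B1, PRKAA2 and TFEC. Intervals describe the spread between these libraries.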

Additional observations from a re-analysis of the deposited data

How the results depend on the processing

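Of 686 values of single members under 14 alternatives, 607 kept their direction and side of the threshold, 25 lost and 18 gained a call and 36 changed sign. NEU1 kept its call in all 14 and NBR1 in 13. Members higher and lower, 5 and 1 as reported, numbered 8 and 1 with DESeq2, 11 and 2 with at least 1 count in total, 1 and 1 with limma on log2(TPM + 1), 2 and 1 with log2(TPM + 0.1), and 2 and 1 with effective length offsets. Other pathway genes, 6 and 4 as reported, numbered 9 and 6, 14 and 9, 5 and 1, 5 and 2, and 6 and 2 in the same order. DESeq2 added TFE3, BNIP3L and CTSD to the members called, and the filter of at least 1 count in total added these and ATG3, SQSTM1, GAA and PSAP. The cause was not tested. RLE size factors and at least 10 counts in every library gave 5 and 1 members each. Leaving out each library gave 1 to 5 members higher, 1 to 3 lower, and 1 to 8 and 1 to 11 other pathway genes. The median log2 FC of the members ran from 0.03 to 0.10 in those fits, and 0 members changed in effective length under any alternative. Over all genes, 484 and 320 as reported became 725 and 422 with DESeq2, 1045 and 679 with at least 1 count in total, 230 and 132 with log2(TPM + 1), 234 and 138 with log2(TPM + 0.1), 272 and 134 with effective length offsets, and 125 to 738 and 62 to 572 when a library was left out.

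With the replicate number as a block, 9 members were higher and 3 lower, with 12 and 11 other pathway genes and 909 and 703 genes in all. TFE3, ATG3, CTSD, GAA, PSAP and ATP6V1H were the members added. The deviations of same-numbered ACM and UCM libraries correlated at 0.318, 0.0347 and 0.177. Not every pair exceeded 0.1, and the numbers were not taken to pair the samples. UCM replicates 2 and 3 were much alike, so these correlations can hardly tell those numbers apart and do not exclude a pairing. ACM replicate 2 correlated best with UCM replicate 2, at 0.0347, ACM replicate 1 with UCM replicate 1, and ACM replicate 3 with UCM replicate 2, at 0.196.

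Sign changes were confined to 12 uncalled members. ATG4A, -0.0028 as reported, was 0.0064 with RLE size factors, 0.00034 with at least 1 count in total, 0.012 with at least 10 counts in every library, 0.12 and 0.13 with log2(TPM + 1) and log2(TPM + 0.1), 0.16 with effective length offsets and 0.0067 with DESeq2. With log2(TPM + 1), log2(TPM + 0.1) and effective length offsets LAMP2 was -0.033, -0.033 and -0.0058, and MCOLN1 was -0.078, -0.080 and -0.048. ATG4B was -0.022 and -0.0225 with the TPM scales, and ULK2 was 0.00042 with at least 10 counts in every library. When a library was left out, log2 FCs ran from -0.43 to 0.084 for TFEB, -0.029 to 0.071 for GABARAP, -0.081 to 0.12 for ULK2, -0.043 to 0.0069 for BECN1, -0.076 to 0.090 for ATG4A, -0.074 to 0.085 for ATG4B, -0.050 to 0.13 for OPTN, -0.025 to 0.071 for LAMP2, -0.043 to 0.061 for MCOLN1, -0.027 to 0.046 for CD63, -0.011 to 0.052 for GLA and -0.070 to 0.0064 for ATP6AP1. Counts of 13 to 34 per library limit GABARAPL1.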
